A study of Rattus norvegicus with 24 samples.

Results

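The genes described here are 44 cell cycle and DNA replication genes, 13 that act in S phase and 31 that act in mitosis, measured in rat soleus muscle 24 h after a bout of running. They were chosen by name, as the probes that carry their symbols in the authors' annotated table of normalized values. Each gene was represented by the probe with the highest mean over the 24 arrays, and 14 of the 44 genes had more than 1 probe. All 44 had a probe, among 26051 features (genes, and probes without a symbol) on the array. Of these, 20321 features and 34 of the 44 genes (12 S phase, 22 mitotic) were well above background on at least 8 arrays and were tested.

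The soleus is a slow, postural muscle of the hind leg. A piece of its middle was taken from 24 female rats of about 14 weeks, 1 array per rat and 8 rats per group; no strain is named in the labels. Sedentary rats (SED) spent 8 weeks in ordinary cages. Detrained rats (DETR) had a running wheel in the cage for 4 weeks and then none for 4 weeks. Trained rats (TR) had the wheel for all 8 weeks. Every rat, the sedentary ones included, was then made to run in a wheel for 1 h at 20 m/min, so no group shows unexercised muscle. The question put by the design is whether earlier running changes the state of the muscle a day after a bout. Only the cell cycle genes' part of that is described here.

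Adult muscle fibres have left the cell cycle, and in healthy muscle dividing cells are few: satellite cells (the muscle stem cells), endothelial cells, fibroblasts and immune cells. Genes of S phase make nucleotides, load and drive the replicative helicase and hold the polymerase on the template, and many are driven by E2F factors from late G1. Mitotic genes are switched on later, in G2, largely through the MuvB and FOXM1 complexes bound at the cell cycle genes homology region (CHR) of their promoters, often beside CCAAT boxes that bind NF-Y. In bulk muscle, fewer dividing cells and less RNA per dividing cell cannot be told apart.

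The promoters of these genes show the split into S phase and mitotic classes in their letters. In the RefSeq promoter table of build GRCr8, which spans 250 bases before to 50 bases after each gene's start, 34 of the 44 genes had an entry (9 S phase and 25 mitotic); 1 of them, Kif2c, had 2 entries, of which the first was used. Rrm2, Mcm4, E2f1, Ccne2, Ccna2, Foxm1, Aurkb, Ube2c, Tpx2 and Racgap1 were not matched. The search covered 3 kinds of motif, on both strands: CCAAT, the CHR core TTTGAA, and 4 spellings of an E2F site, TTTGGCGC, TTTCCCGC, TTTCGCGC and TTTGCCGC. CHR letters stood in 17 of 25 mitotic promoters (68.0%) and in 1 of 9 S phase promoters (11.11%), against 17.1% of the 21842 promoters of protein-coding genes. E2F letters stood in 6 of 9 S phase promoters (66.7%) and in 1 of 25 mitotic ones (4.0%), against 2.73% of all. CCAAT was in 21 mitotic and 6 S phase promoters (84.0% and 66.7%), against 38.0% of all, and both CCAAT and CHR letters were in 16 of 25 mitotic promoters and in 0 of 9 S phase promoters, against 7.05% of all. A match of letters is a description and not a site shown to be bound.

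The 150 bases before the start are printed 5′ to 3′ for 7 genes, credited to RefSeq (GRCr8), with CCAAT, CHR and E2F letters in capitals on whichever strand they lie. Kif22, Cdk1, Prc1 and Aurka are shown as 4 of the mitotic genes that lay lowest in trained muscle, Cdc20 because its level differed most between slides among the tested genes, and Mcm2 and Mcm7 as S phase genes.
Kif22 (chr1:191080879-191081028, minus strand): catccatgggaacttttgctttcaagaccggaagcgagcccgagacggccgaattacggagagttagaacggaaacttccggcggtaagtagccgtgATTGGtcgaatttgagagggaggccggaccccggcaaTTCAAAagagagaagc
Cdk1 (chr20:19265143-19265292, plus strand): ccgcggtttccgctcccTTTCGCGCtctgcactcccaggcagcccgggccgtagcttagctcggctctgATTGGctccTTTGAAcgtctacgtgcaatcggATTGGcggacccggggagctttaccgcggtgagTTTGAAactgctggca
Prc1 (chr1:143659331-143659480, plus strand): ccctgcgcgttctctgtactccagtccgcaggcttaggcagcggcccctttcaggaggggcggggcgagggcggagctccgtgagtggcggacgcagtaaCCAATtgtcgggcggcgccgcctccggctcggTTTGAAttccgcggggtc
Cdc20 (chr5:137255800-137255949, minus strand): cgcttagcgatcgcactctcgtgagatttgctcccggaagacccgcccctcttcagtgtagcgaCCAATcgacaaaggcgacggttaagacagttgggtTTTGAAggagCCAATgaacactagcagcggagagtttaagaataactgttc
Aurka (chr3:181560770-181560919, minus strand): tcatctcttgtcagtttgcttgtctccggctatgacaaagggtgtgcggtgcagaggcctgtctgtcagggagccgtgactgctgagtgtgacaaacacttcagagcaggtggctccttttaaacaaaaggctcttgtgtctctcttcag
Mcm2 (chr4:122918095-122918244, minus strand): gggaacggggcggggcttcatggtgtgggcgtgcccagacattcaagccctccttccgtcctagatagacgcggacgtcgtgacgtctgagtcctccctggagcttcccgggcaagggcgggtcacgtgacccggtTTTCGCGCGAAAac
Mcm7 (chr12:22163179-22163328, minus strand): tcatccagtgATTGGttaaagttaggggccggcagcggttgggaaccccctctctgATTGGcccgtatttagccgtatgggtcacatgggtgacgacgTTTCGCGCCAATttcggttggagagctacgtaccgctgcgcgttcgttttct
The stretches of Kif22, Prc1, Cdc20 and Cdk1 hold CCAAT and CHR letters, that of Cdk1 an E2F spelling too, those of Mcm2 and Mcm7 E2F letters without CHR, and that of Aurka none of the 3 kinds. The Mcm2 promoter did hold CHR letters, but upstream of its printed stretch. It is the S phase promoter counted with CHR letters above. Kif22, Cdk1, Prc1 and Aurka all had lower mean values in trained than in sedentary muscle. Whether the letters bear on these values was not tested, and other spellings of the motifs were not searched.

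Signal set how much of the cell cycle programme could be seen. The 75th percentile of the processed signal ran from 817 to 1184 on the first slide and 562 to 1493 on the second, but only 95.5 to 339 on the third. Values below are log2 processed signal minus that percentile, so 0 is the array's 75th percentile. Groups were spread unevenly over the slides: SED arrays were on all of them (2, 4 and 2), DETR arrays on slides 1 and 3 (6 and 2) and TR arrays on slides 2 and 3 (4 each). On slides 1 and 2, 27 to 40 of the 44 genes were well above background on each array, and on slide 3 the number was 23 to 25 in SED, 21 to 23 in DETR and 10 to 23 in TR. The 3 dimmest arrays of the study, TR 5, TR 7 and TR 8, had percentiles of 133, 95.5 and 124. Trained muscle and dim arrays were thus partly joined, so values within slide 2, the brighter of the slides that hold SED and TR, are given for the genes named below where they bear on the direction. On TR 5, TR 7 and TR 8, 20 of the 34 tested genes were not well above background on any of the 3 arrays, Rrm2, Cdk1, Aurka, Kif22, Mki67, Prc1, Foxm1, Mcm3, Mcm5 and Top2a among them. For these 20, slide 3 and all-slide differences rest in part on upper bounds in TR.

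**Figure D1:**
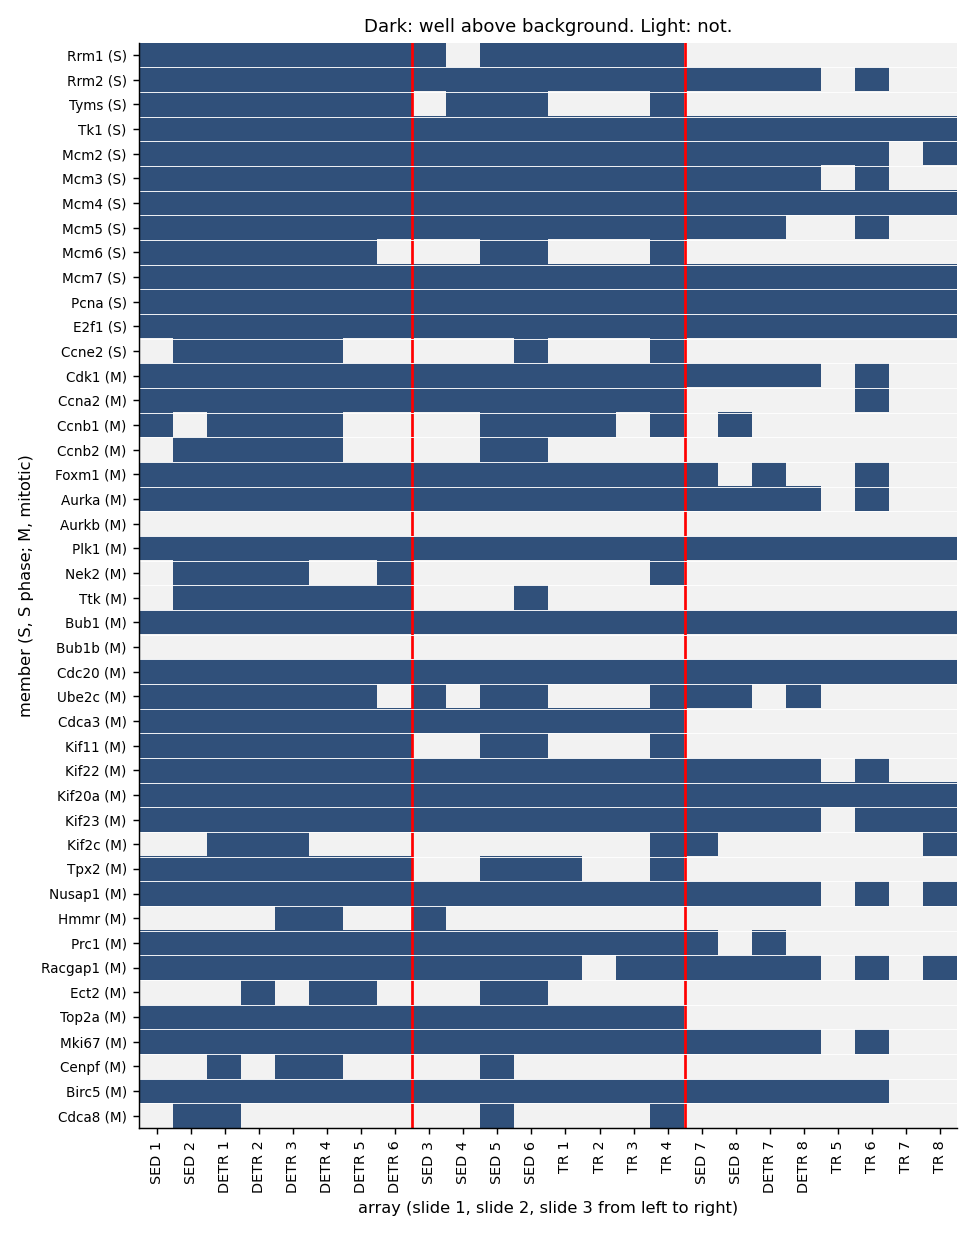
Grid of the 44 genes (rows; S, S phase; M, mitotic) by the 24 arrays (columns, ordered by slide with red lines between slides), with a dark cell where the probe was well above background. The number of dark cells falls on slide 3 and is lowest on TR 5, TR 7 and TR 8.

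Of the 44 genes, 9 were well above background on all 24 arrays: the S phase genes Tk1, Mcm4, Mcm7, Pcna and E2f1 and the mitotic genes Plk1, Bub1, Cdc20 and Kif20a. Another 25 were so on 8 to 23 arrays. The cyclin Ccne2 and the mitotic genes Ccnb2, Nek2, Kif2c, Hmmr, Ect2, Cenpf and Cdca8 were well above background on 1 to 7 arrays, and the kinases Aurkb and Bub1b on none. These 10 genes were not tested, and for Aurkb and Bub1b, partners of the spindle checkpoint and the chromosomal passenger complex, every group has only an upper bound. All 10 soleus fibre markers (among them the slow myosin Myh7 and the troponin Tnnt1) were well above background on all 24 arrays. Of 14 satellite cell markers 12 were so on at least 8 arrays, but Pax7, which defines satellite cells, on only 3.

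No cell cycle gene passed the test between trained and sedentary muscle, and the values of a few named genes lay lowest in TR. In the model with slide as a term (limma, Benjamini-Hochberg adjustment over 20321 features), 0 of 34 genes and 0 of all features had an adjusted p under 0.05. At an unadjusted p under 0.05 there were 9 of 34 genes, 3 of 12 S phase and 6 of 22 mitotic, all lower in TR, against 4.11% of all features that were lower at that level and 6.31% that were higher (10.4% in both directions). The 9 were Rrm2, Mcm2 and Mcm4 of S phase and Kif22, Cdk1, Aurka, Mki67, Prc1 and Bub1 of mitosis. Of all 34, 21 had a lower value in TR (47.2% of all features did), and the median difference was -0.11 on the log2 scale, against 0.01 over all features.

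Among the enzymes that supply nucleotides, Rrm2, the small subunit of ribonucleotide reductase and the one made in S phase, differed most. Its lowest, median and highest values were -3.04, -2.33 and -1.76 in SED, -3.47, -2.53 and -1.66 in DETR and -5.12, -3.53 and -2.92 in TR. Every TR array of slide 2 (-3.56 to -2.92) lay below every SED array of that slide (-2.47 to -1.76), while over all slides the groups overlapped at their edges, where SED 7 (-3.04) reached into the TR range. The difference TR minus SED was -1.18 ± 0.26 (log2 ± SE, limma adjusted p = 0.166), a level 2.26-fold lower, with -1.16 within slide 2 and -1.19 within slide 3. Rrm2 was not well above background on TR 5, TR 7 and TR 8, so those arrays give upper bounds; with arrays of a percentile under 200 left out (those 3 and DETR 8, a choice made after seeing the data) the difference was -1.16 ± 0.22 (limma adjusted p = 0.110). A second Rrm2 probe, well above background on 3 arrays, gave 0.16.

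Rrm1, the large subunit of the same enzyme, which is long-lived and less tied to S phase, had a difference above 0. Its values in TR (-5.13, -4.31 and -3.82) and SED (-4.88, -4.42 and -4.04) overlapped, and the difference was 0.21 ± 0.21 (limma adjusted p = 0.740). Thymidylate synthase, Tyms, and thymidine kinase, Tk1, gave 0.20 ± 0.27 and -0.07 ± 0.10, and Tyms was well above background on 1 TR array and gave -0.08 within slide 2. Of the 4 nucleotide enzymes, only Rrm2 was lower on both slide 2 and slide 3.

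The replicative helicase, a ring of Mcm2 to Mcm7, showed small differences. Mcm4, measured on all arrays, had values of -0.69, -0.62 and -0.33 in SED and -1.03, -0.71 and -0.27 in TR (lowest, median, highest), and on slide 2 every TR array (-0.88 to -0.71) lay below every SED array (-0.63 to -0.55). The difference was -0.21 ± 0.09 (limma adjusted p = 0.444); without the dim arrays it was -0.11. Mcm2 had -2.58, -2.10 and -1.86 in SED and -2.73, -2.56 and -1.81 in TR, and differed by -0.28 ± 0.12 (limma adjusted p = 0.451, -0.18 and -0.42 within slides 2 and 3). The highest TR value of Mcm2, -1.81, was from array TR 2, and the other 7 TR arrays lay between -2.73 and -2.39. Mcm3, Mcm5 and Mcm7 were lower in TR within slide 3 (-0.59, -0.44 and -0.49) and not within slide 2 (0.09, 0.20 and 0.02), but on slide 3 Mcm3 and Mcm5 were well above background on 1 of 4 TR arrays. Pcna, the sliding clamp, had overlapping groups. Its values were 0.26, 0.44 and 0.53 in SED, 0.23, 0.39 and 0.64 in DETR and 0.20, 0.44 and 0.75 in TR, and the difference was 0.05 ± 0.09. E2f1, the factor that opens S phase, gave -0.07 ± 0.15, and Mcm6, well above background on 1 TR array, 0.23 ± 0.28 over all slides and -0.23 within slide 2.

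Kif22, a chromosome-arm motor that pushes chromosomes to the spindle equator, had the smallest p of the 34 genes. Its lowest, median and highest values were -4.03, -3.26 and -2.92 in SED, -3.82, -3.42 and -3.16 in DETR and -5.07, -4.12 and -3.72 in TR. All 4 TR arrays of slide 2 (-4.55 to -3.72) lay below all 4 SED arrays of that slide (-3.43 to -2.92); across slides SED 2 (-4.03) overlapped with TR. The difference TR minus SED was -0.91 ± 0.16 (limma adjusted p = 0.136), 1.87-fold lower, with -0.88 and -0.92 within slides 2 and 3. Of the other tested motors, Kif11, of the spindle poles, gave 0.13 ± 0.25 over all slides, with -0.31 within slide 2 and 0.51 within slide 3, where it was well above background on no array. Kif20a gave 0.01 ± 0.24, with -0.33 within slide 2 and 0.45 within slide 3, and Kif23, of the midbody, 0.04 ± 0.16.

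Cdk1, the kinase that drives entry into mitosis, had values of -3.54, -2.94 and -2.60 in SED, -3.69, -2.97 and -2.36 in DETR and -3.90, -3.77 and -3.43 in TR. The TR arrays formed a narrow band at the low end, and of the SED arrays only SED 2 (-3.54) reached it. The difference was -0.73 ± 0.18 (limma adjusted p = 0.201), 1.66-fold lower, with -0.81 and -0.67 within slides 2 and 3. Its cyclin partner Ccnb1, well above background on 11 arrays, had wider ranges of -6.98, -5.51 and -3.95 in SED and -6.33, -5.27 and -3.87 in TR, with a difference of 0.13 ± 0.28. Ccna2, the other cyclin of Cdk1, gave -0.24 ± 0.23 (-0.69 within slide 2), and Foxm1, the factor that drives mitotic genes, -0.15 ± 0.08 (-0.25 within slide 2).

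Aurka, the centrosome kinase, had values of -2.82, -2.31 and -1.95 in SED, -2.64, -2.24 and -2.04 in DETR and -4.15, -3.00 and -2.51 in TR. SED and DETR covered nearly the same narrow range, and the TR values ran from its low end downwards. The difference TR minus SED was -0.66 ± 0.16 (limma adjusted p = 0.201), 1.58-fold lower, with -0.55 and -0.72 within slides 2 and 3. The probe was not well above background on TR 5, TR 7 and TR 8, of which TR 8 and TR 7 had the lowest TR values, and without the dim arrays the difference was -0.40 ± 0.14. Of the other mitotic kinases, Bub1, of the spindle checkpoint, gave -0.27 ± 0.13 and Plk1 0.06 ± 0.16, both measured on all arrays. Ttk was not well above background on any TR array, so its TR level is only a bound.

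Mki67, the gene of the Ki-67 antigen that coats mitotic chromosomes and marks dividing cells, had values of -2.53, -2.04 and -1.81 in SED, -2.65, -2.21 and -1.97 in DETR and -4.02, -2.45 and -2.09 in TR. On slide 2 all TR arrays (-2.38 to -2.09) lay below all SED arrays (-2.07 to -1.81), by a small gap. The difference was -0.62 ± 0.18 (limma adjusted p = 0.274) over all slides, -0.33 within slide 2 and -0.94 within slide 3, and -0.25 ± 0.12 without the dim arrays. Its other 2 probes, each well above background on 20 arrays, gave smaller differences of -0.24 and -0.18. Prc1, which bundles the midzone of the spindle, had -4.76, -4.14 and -3.95 in SED and -4.76, -4.58 and -4.37 in TR and differed by -0.38 ± 0.11 (limma adjusted p = 0.290; -0.42 and -0.35 within slides 2 and 3), but it was well above background on none of the 4 TR arrays of slide 3. A second Prc1 probe, well above background on 2 arrays, gave 0.49. Top2a, the topoisomerase that untangles sister chromatids and a usual companion of Mki67 as a marker of division, had -5.95, -4.75 and -4.25 in SED and -6.12, -4.63 and -4.26 in TR and differed by 0.15 ± 0.19 over all slides and -0.11 within slide 2; it was well above background on no array of slide 3. Cdca3, a trigger of mitotic entry, gave -0.33 ± 0.40 over all slides but -1.18 within slide 2, where all 4 SED and all 4 TR arrays were well above background; on slide 3 (0.39) none was. Ube2c, which charges ubiquitin for the anaphase-promoting complex, gave -0.36 ± 0.25, Racgap1 -0.24 ± 0.19, Nusap1 -0.07 ± 0.15, Birc5 0.00 ± 0.14 and Tpx2, which activates Aurka on the spindle, 0.21 ± 0.22; within slide 2 all 5 were lower in TR (-0.45, -0.25, -0.18, -0.24 and -0.06).

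**Figure D2:**
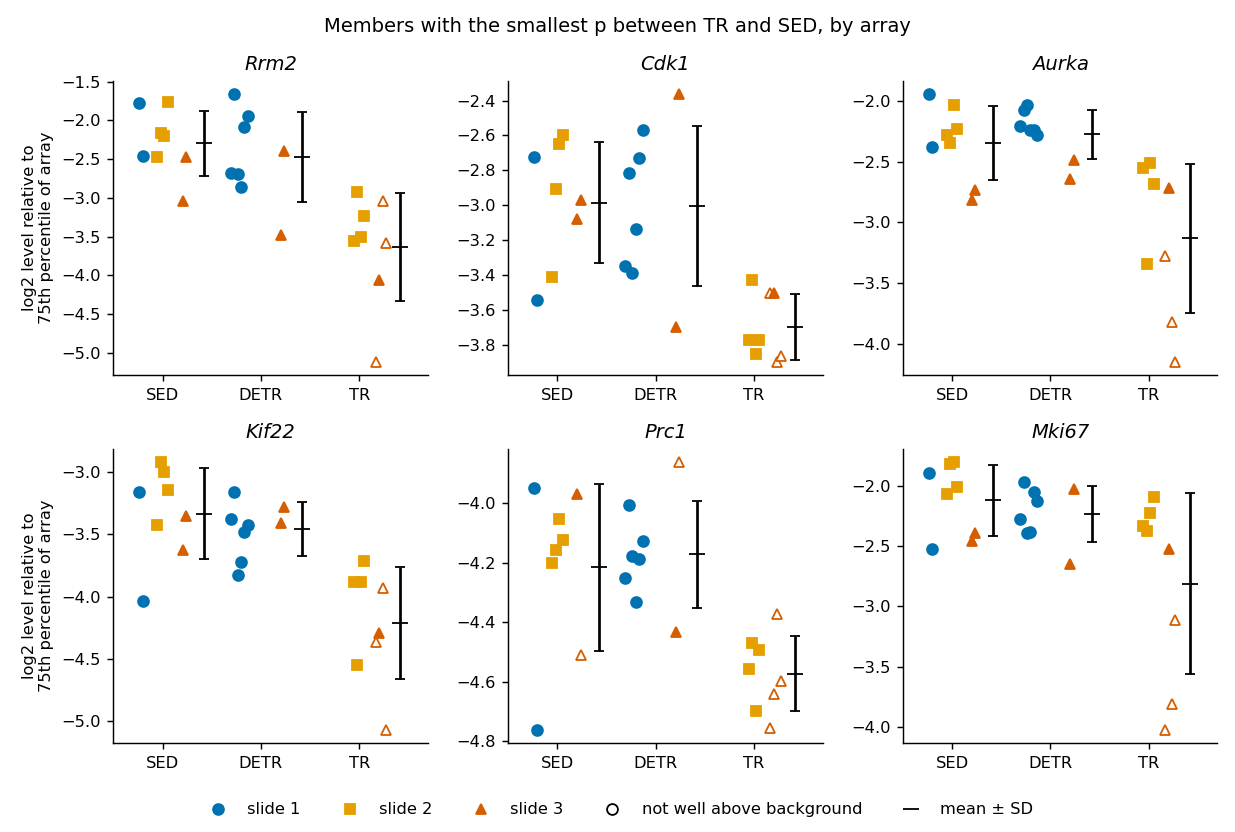
Level of Rrm2, Cdk1, Aurka, Kif22, Prc1 and Mki67 on each array (log2 processed signal relative to the array's 75th percentile) by group; symbols give the slide, open symbols arrays where the probe was not well above background, and bars the mean ± SD of 8 arrays. In each panel the 4 TR arrays of slide 2 lie below the 4 SED arrays of slide 2.

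Read by slide, the mitotic genes were lower in TR in most cases on slide 2. Within slide 2, 19 of 22 tested mitotic genes and 7 of 12 S phase genes had a lower mean in TR than in SED, against 43.8% of all features. Within slide 3 the counts were 14 of 22 and 7 of 12, against 53.9%. The difference between the classes was not tested, since the genes were not chosen independently of these data. Every TR array of slide 2 lay below every SED array of slide 2 for 10 of 34 genes (2 S phase, Rrm2 and Mcm4, and 8 mitotic, Cdk1, Aurka, Ttk, Cdca3, Kif22, Prc1, Mki67 and Birc5), against 2.21% of all features, and above for 0, against 2.7%. Lower means within both slides were found for 16 of 34 genes (4 S phase, 12 mitotic), against 25.9% of all features, and higher means in both for 3, against 28.2%. Over all slides no gene had groups without overlap, against 0.0246% of features, and Ttk, well above background on 1 of 4 SED and 0 of 4 TR arrays of slide 2, is in the count of 10 on background values, which leaves 9 without it.

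**Figure D3:**
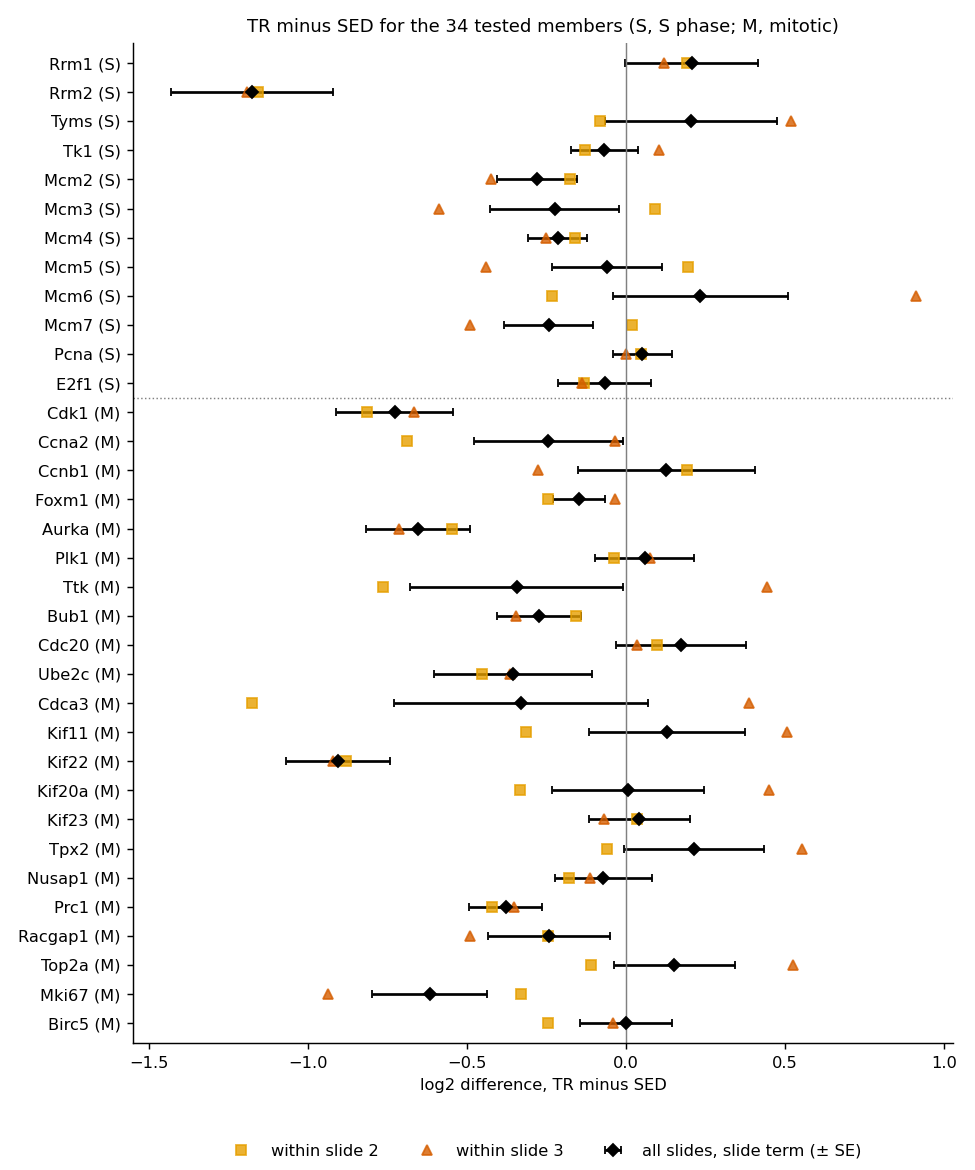
Difference TR minus SED (log2) for the 34 tested genes: black diamonds with bars are the model with slide as a term ± SE, squares the difference within slide 2 and triangles within slide 3. Rrm2, Kif22, Cdk1, Aurka, Mki67 and Prc1 lie to the left on both slides, while Mcm6, Cdca3 and Top2a lie on opposite sides of 0 on slides 2 and 3.

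Differences between groups in the class means were small in every comparison. For the 13 S phase genes the mean level was -2.65 ± 0.13 in SED, -2.52 ± 0.14 in DETR and -2.77 ± 0.21 in TR (SD, n = 8), and with slide as a term TR minus SED was -0.11 ± 0.08 (SE; -0.14 within slide 2, -0.09 within slide 3). For the 31 mitotic genes the mean level was -4.50 ± 0.37 in SED, -4.40 ± 0.34 in DETR and -4.35 ± 0.61 in TR, and TR minus SED was -0.04 ± 0.14, made of -0.25 within slide 2 and 0.11 within slide 3. On TR 5, TR 6, TR 7 and TR 8 of slide 3, 5, 14, 5 and 8 of these genes were well above background. The 0.11 thus rests in large part on background values. The wide TR range of the mitotic mean (-5.05 to -3.53) followed the slides, with the 4 TR arrays of slide 2 at -4.56 or lower and the 4 of slide 3 at -4.42 or higher. Over the tested genes alone (12 and 22) the TR minus SED means were -0.14 ± 0.07 and -0.20 ± 0.11.

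**Figure D4:**
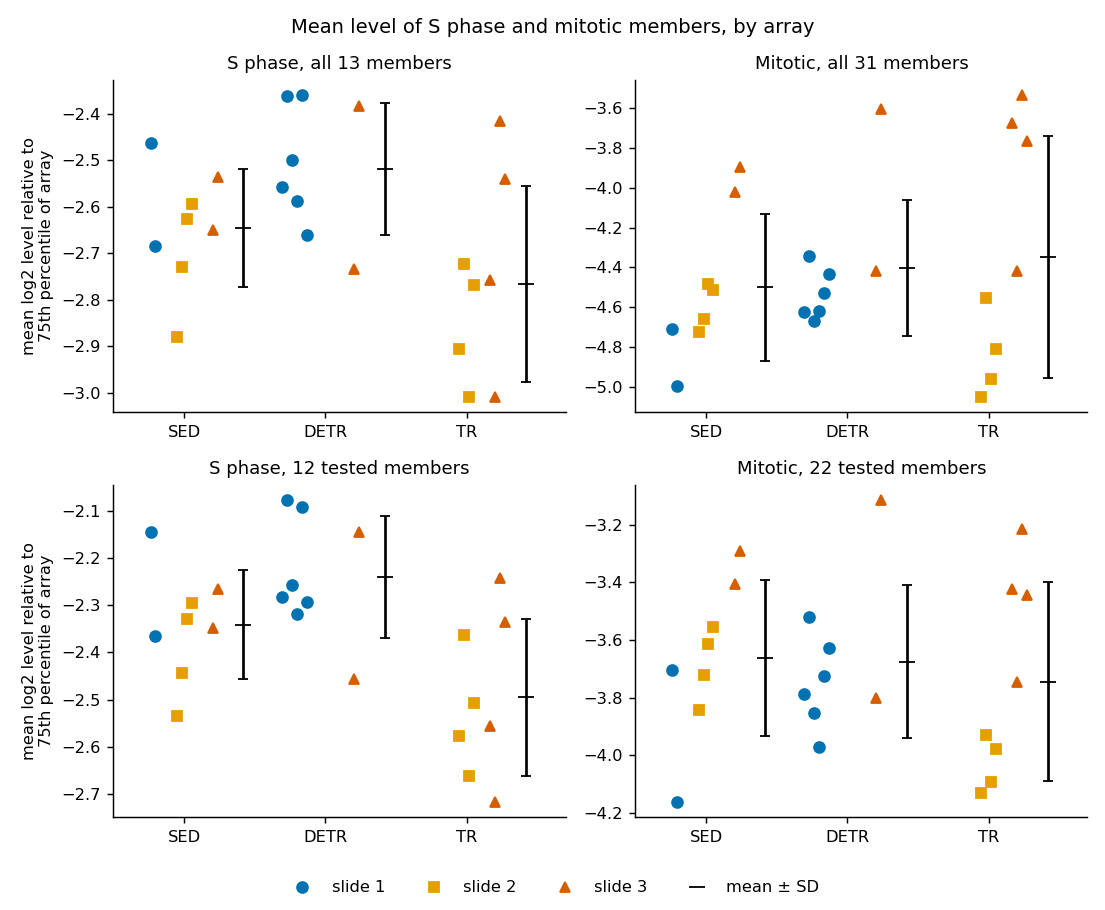
Mean log2 level of the S phase genes (left) and mitotic genes (right) on each array, over all genes (top) and over the tested genes (bottom), by group; symbols give the slide and bars the mean ± SD of 8 arrays. In the mitotic panels the slide 3 arrays of SED and TR lie above their arrays of the other slides, and on slide 2 the TR arrays lie below the SED arrays over the 22 tested mitotic genes.

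Between detrained and sedentary muscle the cell cycle genes gave no call: 0 of 34 genes, and 0 of 20321 features, had a limma adjusted p under 0.05. At an unadjusted p under 0.05 there was 1 gene, higher in DETR, against 3.03% of all features that were higher and 0.91% that were lower (3.94% in both directions). That gene was Foxm1, with values of -4.02, -3.81 and -3.59 in SED and -3.81, -3.63 and -3.43 in DETR (lowest, median, highest) and a difference of 0.20 ± 0.09 (limma adjusted p = 1.00), 0.25 on slide 1 and 0.23 on slide 3. In the model 15 of 34 genes were lower in DETR, against 42% of all features. On slide 1, where 6 of the 8 DETR arrays lie, every DETR array was above both SED arrays for 2 of 34 genes, Foxm1 and Birc5, against 10.6% of all features, and below for 0, against 2.38%; over all slides no gene's groups were without overlap, against 0.064%. Lower means within both slides were found for 3 genes (16.6% of all features) and higher means for 9 (29%). Within slide 1, 19 of 22 mitotic genes had a higher mean in DETR, and within slide 3, 9 of 22 did (of all features 34% and 53.7% were lower there). Both SED arrays of slide 1 enter the first count, and SED 1 was above SED 2 for 29 of the 34 genes. Rrm2, Kif22, Cdk1, Aurka, Mki67 and Pcna gave -0.18 ± 0.29, 0.13 ± 0.19, 0.05 ± 0.21, 0.12 ± 0.19, 0.16 ± 0.21 and 0.02 ± 0.11. The class means differed by 0.04 ± 0.10 (S phase) and 0.08 ± 0.16 (mitotic).

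Other S phase and mitotic genes with the smallest p between DETR and SED had differences near the size of their SE. Mcm3, of the helicase, gave 0.25 ± 0.23 (limma adjusted p = 1.00), Mcm6 0.21 ± 0.32, Top2a 0.24 ± 0.22, Kif11 -0.27 ± 0.28, Prc1 0.12 ± 0.13, Birc5, the survivin gene of the passenger complex, -0.15 ± 0.17 and Racgap1, which acts in cytokinesis, 0.19 ± 0.22. The sign changed between slide 1 and slide 3 for Birc5 (0.40 and -0.72), Racgap1 (0.53 and -0.31) and Kif11 (0.11 and -0.40).

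Between trained and detrained muscle, groups that meet only on slide 3 (4 TR and 2 DETR arrays), the same test called 0 of 34 genes and 0 of 20321 features. At an unadjusted p under 0.05 there were 8 genes, all lower in TR, against 5.72% of all features (2016 features, 9.92%, in both directions). They were Rrm2 (-0.99 ± 0.33, limma adjusted p = 0.405) and Mcm4 (-0.27 ± 0.12) of S phase, and Kif22 (-1.03 ± 0.21, adjusted p = 0.161), Aurka (-0.77 ± 0.21), Prc1 (-0.50 ± 0.15), Foxm1 (-0.35 ± 0.10), Mki67 (-0.77 ± 0.23) and Cdk1 (-0.77 ± 0.24) of mitosis, with limma adjusted p between 0.161 and 0.489. The DETR values of Kif22 (-3.82 to -3.16) lay above those of TR (-5.07 to -3.72) except that DETR 3 and DETR 4 reached the highest TR array, and of the Aurka values in DETR (-2.64 to -2.04) only DETR 7 lay below the highest TR array. Mcm3 gave -0.48 ± 0.26. Of all 34 genes 20 were lower in TR, against 54.5% of all features, and within slide 3 there were 17 lower and 17 higher, against 49.7% and 50.3%; no gene was higher at that p, against 4.2% of features, and no gene's groups were without overlap, against 0.123%. The class means differed by -0.16 ± 0.11 (S phase) and -0.12 ± 0.18 (mitotic), but within slide 3, the only slide both groups share, by -0.12 and 0.16. Most of the 31 mitotic genes were not well above background on the TR and DETR arrays of that slide. This comparison and that with SED share the TR arrays, so their likeness is no independent result.

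Scaling and weights moved these counts. With quantile normalization 29 of 34 genes were lower in TR than in SED (56.6% of all features), in the values normalized by the authors also 29 (57.4%), with no slide term 16 (43.98%), and with normexp background correction 12 (27.4%), where the median of all features shifted to 0.15 for TR minus SED and 0.13 for TR minus DETR. Relative to the median of all features, 23, 27, 26, 20 and 16 of 34 genes lay below it in the main scaling, quantile normalization, the authors' table, no slide term and normexp. For TR minus SED under normexp, no gene was lower at an unadjusted limma p under 0.05, against 2.9% of all features. At that p 4 genes were higher, and the share of all features higher was not counted. Rrm2 and Kif22 gave -0.33 and -0.08 there. Normexp added an offset of 50, beside 75th percentiles of 95.5 to 339 on slide 3 and 562 to 1493 on slide 2. The part of this offset in the normexp values was not tested. With arrays weighted by their noise (limma array weights, which gave TR 2, TR 5, TR 7 and TR 8 weights of 0.124 to 0.237), 3 of the 34 genes had an adjusted p under 0.05 for TR minus SED, Rrm2 (0.00982), Kif22 (0.0166) and Cdk1 (0.0178), among 102 features, and 5 for TR minus DETR, Rrm2, Cdk1, Foxm1, Kif22 and Prc1, among 166.

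For some mitotic genes the slides differed by far more than the groups. For 9 of the 44 genes every slide 3 array lay above every array of slides 1 and 2, and for 1, Mcm3, below. Of the 34 tested genes these were 8 above, against 14.9% of all features, and 1 below, against 9.51%, so such shifts were common across the array. Cdc20, the activator of the anaphase-promoting complex and well above background on all arrays, ran from 0.31 to 1.77 on slides 1 and 2 and from 1.95 to 3.40 on slide 3. Within SED the mean of Cdc20 was 0.74 on slides 1 and 2 and 3.11 on slide 3. Kif20a ran from -5.08 to -4.09 and from -3.32 to -1.26, and E2f1 from -1.60 to -0.88 and from -0.80 to 0.47. Mcm3 went the other way, from -2.36 to -1.08 on slides 1 and 2 and from -3.94 to -2.56 on slide 3. Of the TR arrays 4 of 8 and of the SED arrays 2 of 8 lie on slide 3, and TR minus SED for Cdc20 was 0.73 without a slide term and 0.17 ± 0.20 with one. What differed on slide 3 beside its lower signal was not tested.

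**Figure D5:**
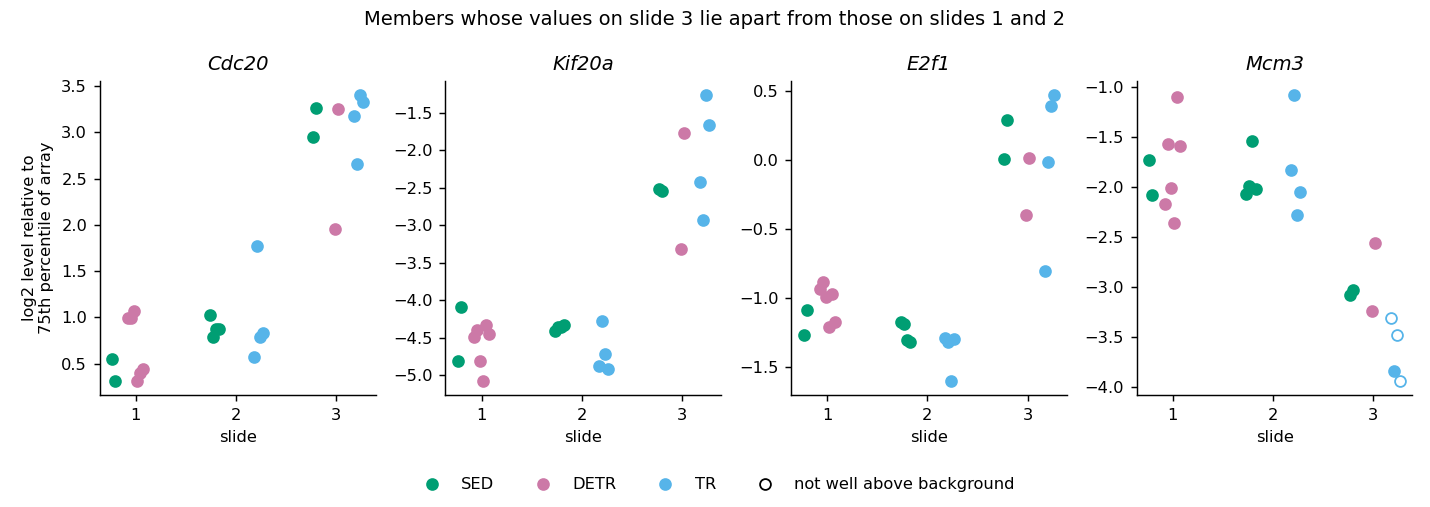
Level of Cdc20, Kif20a, E2f1 and Mcm3 on each array (log2 relative to the array's 75th percentile) by slide; colours give the group and open symbols arrays where the probe was not well above background. All 3 groups are higher on slide 3 for Cdc20, Kif20a and E2f1 and lower for Mcm3.

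Pairs of genes that work together were followed across the 24 arrays after group and slide means were removed (5 pairs, permutation test of Pearson's r with 100000 resamples, two-sided, Benjamini-Hochberg over the 5). Ccnb1 was well above background on 11 of the 24 arrays and on 1 of the 8 arrays of slide 3, and Rrm1 and Top2a on none of slide 3, so their pairs rest in part on background values. Cdk1 and Ccnb1, kinase and cyclin, gave r = 0.54 (rho 0.47, adjusted p = 0.0246) and 0.44 without the 2 outermost arrays (adjusted p = 0.103, so the relation rests in part on DETR 7 and DETR 8), with 0.34, 0.84 and 0.50 within slides 1, 2 and 3. Rrm2 and Top2a, S phase against mitosis, gave 0.50 (rho 0.55, adjusted p = 0.0246) and 0.54 without 2 arrays, but -0.08 within slide 2. Rrm1 and Rrm2, subunits of 1 enzyme, gave 0.50 (rho 0.24, adjusted p = 0.0246), which rests on DETR 7 and TR 5, since without them r was 0.205. Mcm2 and Mcm5, subunits of 1 helicase, gave -0.04 (rho -0.13, adjusted p = 0.837). Top2a and Mki67 gave -0.31 (rho -0.05, adjusted p = 0.170), but 0.76 within slide 1, and 0.56 in the authors' normalized table, so the sign of this pair depends on the scaling. On the values as they stand, with no means removed, the 5 pairs gave r of 0.05 to 0.43, with permutation p adjusted over the 5 of 0.186 or more, but for Top2a and Mki67 the rank correlation was 0.64 (permutation p adjusted over the 5 of 0.0041).

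The rest of the cell cycle machinery was taken from lists by function, which hold no member. These lists too were chosen with earlier results of these data known, so their counts are no independent result. Of 37 tested further genes of DNA replication, such as those of origin licensing, polymerases and chromatin assembly, 26 were lower in TR than in SED and 11 higher, with a median of -0.08, and 7 were lower and 1 higher at an unadjusted p under 0.05. Of all features 47.2% were lower in TR, and at that p 4.11% were lower and 6.31% higher. The chromatin assembly factors Chaf1b and Chaf1a gave -0.81 ± 0.18 (limma adjusted p = 0.166) and -0.43 ± 0.13 (limma adjusted p = 0.306). Within slides 2 and 3, Chaf1b gave -0.90 and -0.75, and Chaf1a -0.10 and -0.85. Of 31 tested further mitotic genes, 25 were lower and 6 higher (median -0.10), 4 lower and 0 higher at that level, among them Incenp (-0.35 ± 0.15), the checkpoint gene Bub3 (-0.23 ± 0.10) and the kinetochore gene Spc24 (-0.24 ± 0.11). These 3 differed more within slide 3 than within slide 2: Incenp -0.48 against -0.19, Bub3 -0.52 against -0.05 and Spc24 -0.42 against -0.09. Chaf1b and Incenp were each well above background on 5 TR arrays. In no list did a gene have an adjusted p under 0.05.

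G1 genes and the brakes of the cycle also had medians below 0 in TR minus SED. The counts of lower genes that follow stand beside 47.2% of all features lower in TR. Of 17 G1 cyclins, kinases and partners, 11 were lower in TR (median -0.08), with Ccnd2, a D cyclin, at -0.49 ± 0.19 and E2f3 at 0.18 ± 0.10. Of 21 brakes, 14 were lower (median -0.06): the stress-induced Gadd45b gave -0.64 ± 0.19, Wee1, which holds Cdk1 inactive, -0.33 ± 0.14, and the p53 target Ccng1 0.17 ± 0.08. Of 8 histone genes and histone processing factors tied to replication, 6 were lower (median -0.13), with Hist2h4 at -0.25 ± 0.09 and Slbp, which binds histone messages, at -0.28 ± 0.13. In DETR minus SED the lists had medians of -0.01 to 0.12, with Cdk6 at 0.66 ± 0.24, Pole, a polymerase, at -0.53 ± 0.20, Cenpw, of the centromere, at 0.67 ± 0.30 and Ccng2 at 0.23 ± 0.12. Cenpw gave 0.05 within slide 1 and 1.99 within slide 3, and was well above background on 6 SED arrays. Pole gave -0.26 within slide 1 and -0.79 within slide 3. In TR minus DETR they had medians of -0.25 to -0.05, with Cdk6 at -0.99 ± 0.27, Rfc3, of the clamp loader, at -0.74 ± 0.25, Hist2h4 at -0.39 ± 0.12, Ccng2 at -0.38 ± 0.14, Cdkn1a, the p21 inhibitor, at 1.21 ± 0.60 and Incenp at -0.45 ± 0.20.

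Markers of cell types other than fibres were in most lists higher in TR, by differences that did not pass the test. Of 10 soleus fibre markers 7 were higher in TR than in SED too. Of 12 tested macrophage markers 10 were higher in TR than in SED, 6 of them at an unadjusted p under 0.05 (of all features 52.8% were higher, and 6.31% at that p), such as Mrc1 (0.75 ± 0.22), Ctss (0.54 ± 0.19) and Lyve1 (0.56 ± 0.19). The summed level of macrophage markers (linear signal relative to the 75th percentile, over the 13 on the array) ran from 14.0 to 32.3 in SED, 9.56 to 29.1 in DETR and 11.52 to 48.8 in TR. Of 12 satellite cell markers 8 were higher (median summed level 12.9 in SED and 15.2 in TR without Des, with the highest at 17.4 and 19.4), of 10 endothelial markers 8 (13.4 to 16.6 and 13.2 to 24.7), of 10 fibroblast and adipogenic progenitor markers 4 (median 57.4 and 50.7, with the highest at 138 and 75.2), of 8 pericyte and smooth muscle markers 6 (8.19 to 11.8 and 7.76 to 13.5 without Des), and of 6 adipocyte markers 6 (4.05 to 9.66 and 4.01 to 15.1). Des, an abundant fibre gene on the satellite cell and pericyte lists, made up 78.9% to 92.0% of their sums on the SED and TR arrays, so it was left out of them after its values were seen. Of blood cells, 7 of 8 lymphocyte markers, 4 of 6 neutrophil markers and 1 of 6 erythroid markers were higher, with Cd8a well above background on no array, Cd3e on 2 and Ms4a1 on 3. Within the lists single genes differed in sign: of the satellite cell genes Myf5 gave 0.43 ± 0.14 and Myod1 -0.95 ± 0.29, and of the progenitor genes Col1a1 gave -1.39 ± 0.58 and Dcn 0.32 ± 0.14. Summed levels overlapped between SED and TR in each of these lists, and the part of cell makeup in the values of the cell cycle genes was not tested. The highest TR sum was from TR 7 for endothelial markers and from TR 2 for macrophage and adipocyte markers. Within slide 2, endothelial sums ran from 13.4 to 15.4 in SED and 13.2 to 15.5 in TR. Macrophage sums ran there from 24.7 to 32.3 in SED and 31.5 to 48.8 in TR.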

How the data were processed

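RNA of 24 rat soleus samples was hybridised to Agilent one-colour arrays, 1 array per rat. The deposited scanner files give spot intensities; per the file headers, the processed signal is background-subtracted and detrended, by Agilent Feature Extraction 11.5.1.1 (the submitters' processing notes give 11.5.11.1). A second deposited file holds normalized log2 values made by the authors; its columns share 1 distribution to within 0.0031, and its method is not named in the labels or headers. It supplied the gene symbols (24272 of 30367 probes had one) and served as an alternative.

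Here log2 of the processed signal was taken minus each array's 75th percentile, after control spots and outlier spots were left out, and spots of a probe were averaged. A probe counted as well above background on an array where at least 50% of its spots were, and features so on at least 8 arrays were tested. The model held group and slide, over all 24 arrays (limma 3.58.1 in R 4.3.3, Benjamini-Hochberg adjustment, threshold 0.05). In simulated data the model recovered 38% of 1.5-fold and 76% of 2-fold changes for TR minus SED. For DETR minus SED it recovered 28% and 68%, and for TR minus DETR 26% and 60%. Slides, told apart by the scanner files, are used as batches. P-values rest on the spread between rats.

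The members and lists were chosen with earlier results of these data known. Values are given for the 3 S phase and 6 mitotic genes with the smallest p in each comparison, for Mki67, Pcna, Top2a, Ccnb1, Rrm1 and Mcm2 whatever they showed, and for up to 3 genes per pathway list; markers were named after their values were seen. Normexp correction (offset 50) was run on median spot signals, as the files used hold no mean signal. Alternatives covered normalization, filter, slide, replicate block, array weights, probe choice and each array left out. The number of arrays limits the precision.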

Additional observations from a re-analysis of the deposited data

Results flagged for a closer look

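In groups of 8 arrays, a single array lay far from the other 7 for 6 genes and 1 class mean, of 108 groups of values examined; chance gives about 1 in 20. DETR 8, a dim array of slide 3, was the high array for Ccnb1 (-4.41, others -6.30 to -5.43, and not well above background), Ube2c (-3.09, others -5.43 to -4.47), Nusap1 (-2.69, others -4.37 to -3.61) and the mean of the 31 mitotic genes (-3.61, others -4.67 to -4.34). DETR 7, the other DETR array of slide 3, was the low array for Rrm1 (-5.63, others -4.43 to -3.66) and Kif11 (-6.73, others -5.85 to -5.30), and neither probe was well above background there. TR 2, on slide 2, was the high TR array for Mcm2 (-1.81, others -2.73 to -2.39).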

How the results depend on the processing

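With 1 array left out at a time, no cell cycle gene reached an adjusted p under 0.05 in any comparison, and TR minus SED ranged from -1.30 to -1.01 for Rrm2, -0.97 to -0.81 for Kif22 and -0.81 to -0.67 for Cdk1. Genes at an unadjusted p under 0.05 numbered 1, 9 and 8 of 34 (DETR minus SED, TR minus SED, TR minus DETR), against 3.94%, 10.4% and 9.92% of all features. Under array weights 3 and 5 genes were called in TR minus SED and TR minus DETR, among 102 and 166 features. The S phase mean, TR minus SED, was -0.28 in the authors' table and 0.087 with normexp; TR minus DETR it was -0.31 with array weights, -0.33 in the authors' table, -0.32 with quantile normalization and 0.077 with normexp. The mitotic mean, TR minus DETR, was 0.16 within slide 3, 0.16 in a fit of only those groups, 0.16 with normexp and -0.57 with array weights. With normexp the sign turned for Prc1, TR minus SED (0.17), and, TR minus DETR, for Foxm1 (0.13), Mcm2 (0.066), Mcm3 (0.12) and Prc1 (0.13). Rrm1, TR minus DETR, was -0.19 with no slide term, -0.0076 with array weights, and -0.15 to 0.62 with 1 array left out, the lowest without DETR 7. Over all probes Prc1, TR minus SED, was 0.054. Second probes gave 0.16 for Rrm2, 0.49 for Prc1 and 0.20 for Bub1 (TR minus SED), -0.032 for Mcm3 (DETR minus SED), and 0.019 for Mcm3 and 0.44 for Prc1 (TR minus DETR). These probes of Rrm2, Prc1 and Bub1 were well above background on 3, 2 and 2 arrays, and that of Mcm3 on 22. For TR minus SED, second probes of Mcm2, Mcm4 and Ccna2 kept the sign (-0.29, -0.29 and -0.49, on 20, 10 and 10 arrays). That of Foxm1 (10 arrays) turned it, at 0.04. Without 2 arrays the pairs gave r of 0.442 (Cdk1 and Ccnb1), 0.205 (Rrm1 and Rrm2) and 0.149 (Top2a and Mki67); Top2a and Mki67 gave 0.561 in the authors' table and 0.549 with quantile normalization. The cause of these shifts was not tested.

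Same-numbered arrays did not deviate together (correlation -0.379 to 0.276, median -0.01, over 24 pairs, 1 of them over 0.1). Differently numbered arrays had a median of 0.004 over 168 pairs, 36 of them over 0.1. These values cannot show whether the numbers pair rats, since paired rats need not share deviations. With the replicate number as a block, 0 genes were called, and TR minus SED was -0.85 for Rrm2 and -0.93 for Kif22. Signal over background limits the genes of low level, above all on slide 3, where TR 5, TR 7 and TR 8 give only bounds for 20 of the 34 tested genes, Prc1 and Foxm1 included.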
